A study of Mus musculus with 12 samples.

Results

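The guanylate-binding proteins of the mouse are large GTPases made in response to interferons, and 8 of their genes, Gbp2 to Gbp9, were followed here as a family. They were chosen by gene symbol, with earlier results of these data known, and all 8 had a row among the 27179 genes counted. The annotation holds 11 Gbp genes, the others being Gbp2b, Gbp10 and Gbp11. RNA was sequenced from MC38-idAdpgkG, a C57BL/6 mouse colon carcinoma line that carries a doxycycline-inducible, degradable Adpgk(R304M) neoantigen joined to turboGFP. The series belongs to work on neoepitopes shown by MHC class I and read by mass spectrometry. Every culture was given mouse interferon-gamma at 20 ng/mL, so no group shows the family without interferon. The control group had interferon-gamma alone for 51 h, and the doxycycline group had 1 µg/mL doxycycline with it over the same 51 h. In the dTAG-13 group, 48 h of interferon-gamma preceded a further 3 h with 1 µM of this degrader added, a bifunctional molecule that brings proteins with an FKBP12-derived tag to the ubiquitin ligase cereblon. The doxycycline plus dTAG-13 group had interferon-gamma and doxycycline for 48 h before the same 3 h with dTAG-13. Each group held 3 libraries, which the labels describe as technical replicates of a single biological sample, so every p-value below measures only the spread between libraries of 1 culture per group. The labels name no vehicle for doxycycline or dTAG-13.

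Interferon-gamma signals through its receptor and the kinases JAK1 and JAK2, acts on promoters through GAS elements, and induces the factor IRF1, which binds interferon-stimulated response elements. Gbp genes carry such elements and are among the most inducible targets of this pathway in many cell types. Their proteins bind and hydrolyse GTP, assemble into coats on pathogen vacuoles and cytosolic bacteria, and promote release of microbial products that activate caspase-11. Some members, among them Gbp2 and Gbp5, end in a CaaX motif and are anchored to membranes by a prenyl group. The mouse genes lie in a cluster on chromosome 3 and another on chromosome 5.

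In GRCm38 (mm10), the 4 members on the plus strand of chromosome 3 lie in the order Gbp5 (142496934 to 142522344), Gbp7 (142530336 to 142550151), Gbp3 (142560016 to 142573213) and Gbp2 (142620663 to 142638008). The 4 members on the minus strand of chromosome 5 are Gbp8 (105012513 to 105053609), Gbp9 (105076464 to 105110357), Gbp4 (105115767 to 105139586) and Gbp6 (105270702 to 105295871). The 250 bases before the annotated start were taken because the interferon elements of the family are known to sit close to the start. They were read from RefSeq (GRCm38.p6) for the chromosome 3 members, 4 of the 8. The promoter reference held no entry for Gbp4, Gbp6, Gbp8 and Gbp9, so their sequences were not searched. Each sequence is on the plus strand, 5′ to 3′, and capitals mark every pair of GAAA with 2 bases between them, the core of an interferon-stimulated response element searched on both strands, or every TTCNNNGAA, a GAS element, which reads the same on both strands.
Gbp5, chr3:142496684-142496933: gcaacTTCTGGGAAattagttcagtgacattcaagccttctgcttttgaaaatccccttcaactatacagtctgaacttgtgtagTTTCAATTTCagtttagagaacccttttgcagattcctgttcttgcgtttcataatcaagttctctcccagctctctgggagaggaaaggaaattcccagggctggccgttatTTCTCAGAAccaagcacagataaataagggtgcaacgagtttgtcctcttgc
Gbp7, chr3:142530086-142530335: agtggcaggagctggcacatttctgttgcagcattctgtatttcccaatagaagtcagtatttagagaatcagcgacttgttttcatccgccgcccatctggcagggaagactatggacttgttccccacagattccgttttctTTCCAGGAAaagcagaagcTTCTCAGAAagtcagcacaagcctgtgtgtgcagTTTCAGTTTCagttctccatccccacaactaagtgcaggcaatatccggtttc
Gbp3, chr3:142559794-142560043: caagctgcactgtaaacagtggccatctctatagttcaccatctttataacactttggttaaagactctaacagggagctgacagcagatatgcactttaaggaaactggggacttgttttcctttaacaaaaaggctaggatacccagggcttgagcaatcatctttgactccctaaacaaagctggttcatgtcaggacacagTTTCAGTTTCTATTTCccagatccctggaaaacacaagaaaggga
Gbp2, chr3:142620413-142620662: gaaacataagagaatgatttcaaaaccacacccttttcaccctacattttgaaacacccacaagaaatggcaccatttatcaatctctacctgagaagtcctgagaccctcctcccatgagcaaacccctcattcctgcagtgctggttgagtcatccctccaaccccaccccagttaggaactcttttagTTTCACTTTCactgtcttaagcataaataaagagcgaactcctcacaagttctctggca
All 4 windows held the GAAA pair, which was found in 978 of 32851 promoter windows of this length (2.98%). In Gbp7, Gbp3 and Gbp2 the GAAA pair closest to the start ended 43, 29 and 49 bases before it, and in Gbp5 it ended 155 bases before it. These distances run from the RefSeq start just after each window, which in Gbp3 lies inside the gene model given above and in the others is its first base. Gbp3 held 2 such matches that overlap each other, and a second RefSeq start of Gbp3 (window 142560106 to 142560355) held none. TTCNNNGAA was found in 2306 of the windows (7.02%), and among these 4 members it was present 2 times in Gbp5 and 2 times in Gbp7. These matches are a description of the letters and show no binding.

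Library totals ran from 22165538 to 32809573 counts, and 12910 genes, including all 8 members, passed the filter on low counts. Adpgk, the gene on the inducible construct, stood at 158 to 162 CPM (counts per 1e6, after scaling for library composition) in control and at 1316 to 1355 CPM with doxycycline, as labelled. It was 177 to 185 CPM with dTAG-13 and 1351 to 1379 CPM with both compounds. Markers of colon epithelium were absent although the tissue is labelled colon: Epcam and Cdx2 had 0 counts in every library, and 8 of 9 such markers stayed under 10 counts in each. These 9 summed to 0.0628 to 0.568 CPM in control, 0.233 to 0.712 with doxycycline, 0.448 to 0.514 with dTAG-13 and 0.223 to 0.351 with both. Of 5 mesenchymal markers, Vim (1502 CPM in control) and Fn1 (774 CPM) were abundant, Pdgfrb stood at 5.28 CPM, and Col1a1 and Col1a2 were near 0 (0.0421 and 0.178 CPM). The sum of the 5, nearly all of it Vim and Fn1, was 2245 to 2305 CPM in control, 2015 to 2029 with doxycycline, 1622 to 1641 with dTAG-13 and 1407 to 1445 with both, whereas Pdgfrb rose with doxycycline (0.68 on the log2 scale). The 6 leukocyte markers summed to 1.44 to 1.67 CPM in control and 1.70 to 1.91 with doxycycline. They summed to 1.90 to 2.61 with dTAG-13 and 2.59 to 3.1 with both, with Cd3e at 0 in every library. Nearly all came from Cd68 (0.942 CPM in control, 1.79 with both) and Lyz2 (0.643 and 0.962 CPM). Cd68 was higher with both than in control (0.91 on the log2 scale, edgeR adjusted p 0.000699). Lyz2 was higher with dTAG-13 (0.78, edgeR adjusted p 0.0365), but not called after a correction for length and GC content (0.55). Pecam1, the most abundant of 3 endothelial markers, stood at 2.93 CPM in control, 3.06 with doxycycline, 3.46 with dTAG-13 and 2.29 with both. The part of these shifts in the results below was not tested, and in bulk RNA fewer cells making a transcript and less of it per cell cannot be told apart.

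Among the 8 members, Gbp2 was by far the most abundant transcript and Gbp8 the scarcest. Per kilobase of the longest coding transcript, Gbp2 stood in control cells at 291 ± 7.69 CPM per kb (mean ± SD, n = 3). Gbp3 followed at 70.0 ± 0.786, Gbp7 at 52.9 ± 1.16, Gbp4 at 50 ± 1.3 and Gbp6 at 41.1 ± 0.180 CPM per kb. Lower still were Gbp9 at 15.0 ± 0.347, Gbp5 at 5.33 ± 0.0442 and Gbp8 at 1.73 ± 0.198 CPM per kb. The order of levels in control was the same over the union of each gene's exons, although the distances changed: Gbp7 then stood at 52.9, Gbp4 at 30.3, Gbp6 at 18.0 and Gbp9 at 12.7 CPM per kb. In cells with both compounds the longest transcripts placed Gbp4 (73.5 ± 0.365 CPM per kb) and Gbp6 (67.7 ± 0.616) above Gbp7 (58.9 ± 1.09). This crossing rests on the transcript length chosen, since over the exon union Gbp7 (59.0) stayed above Gbp4 (44.6) and Gbp6 (29.6). With dTAG-13 alone, Gbp4 (58.6 ± 1.07) was likewise above Gbp7 by the longest transcript and below it over the exon union (35.5 against 47.4), while Gbp7 (47.4 ± 0.852) and Gbp6 (46.4 ± 1.1 CPM per kb) by the longest transcript did not differ beyond their spread. The 8 members together took 0.156 to 0.161% of all counts in control, 0.219 to 0.223% with doxycycline, 0.164 to 0.169% with dTAG-13 and 0.211 to 0.217% with both.

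**Figure D1:**
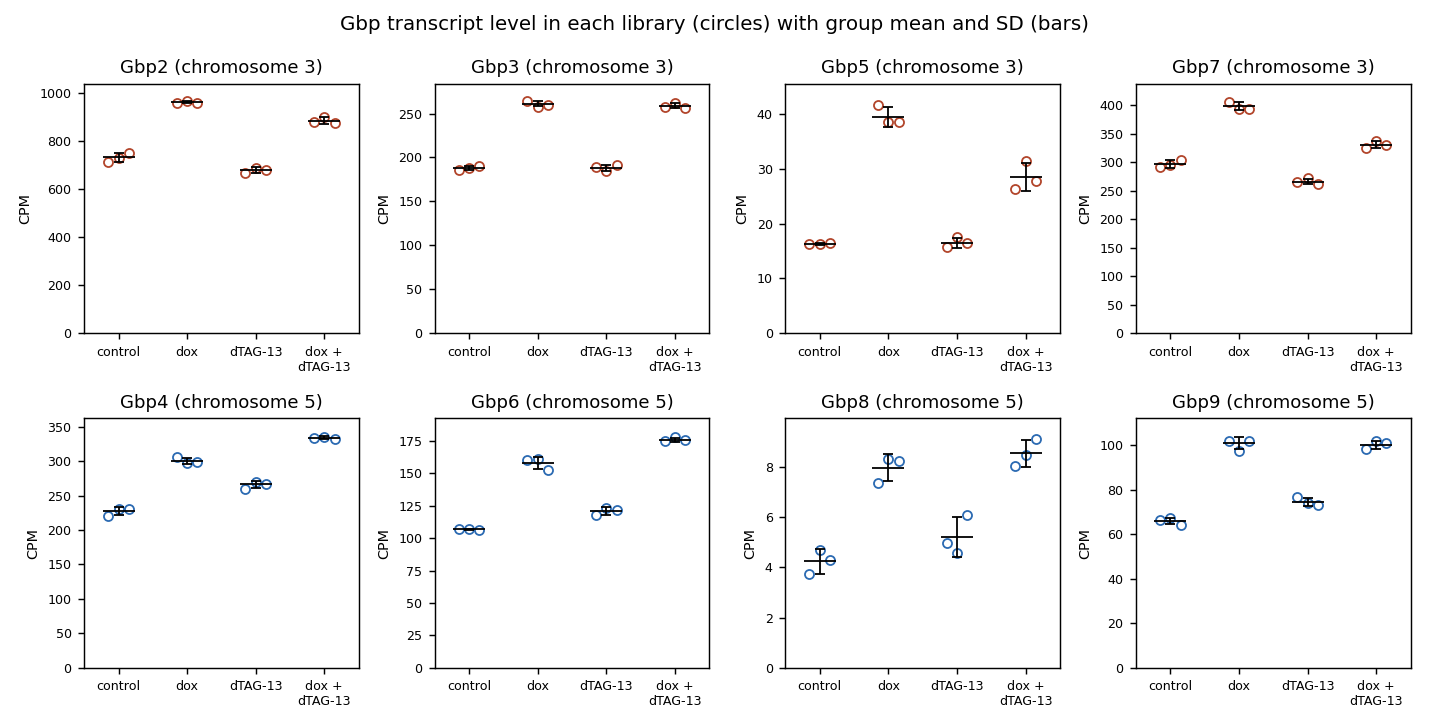
Level of each Gbp transcript in CPM in every library (circles, 3 per group) with the group mean and SD (bars), members of chromosome 3 above and of chromosome 5 below, each panel with its own axis from 0. In all 8 panels every library with doxycycline stands above every library without it. The share of all tested genes that separate in this way was not counted.

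Doxycycline, which switches the neoantigen on, was compared with control under the same interferon-gamma. No group had doxycycline without the inducible construct, so the drug itself and the induction cannot be told apart. All 8 members rose, by 31.3% for Gbp2 to 143% for Gbp5. Gbp5, a promoter of NLRP3 inflammasome assembly, read 16.3, 16.2 and 16.4 CPM in the control libraries and 41.7, 38.5 and 38.5 CPM with doxycycline. The lowest doxycycline library was thus far above every control library, and the log2 fold change was 1.28 (SE 0.0603, edgeR adjusted p 1.89e-20). Gbp8 followed with 3.73, 4.70 and 4.29 CPM in control against 7.35, 8.30 and 8.25 with doxycycline, or 0.91 on the log2 scale (SE 0.114, edgeR adjusted p 3.11e-08). Among the 8 members its counts were the fewest and its standard error the widest.

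The abundant members rose by less. Gbp2, which coats pathogen vacuoles and bacteria, read 713, 731 and 752 CPM in control and 960, 965 and 960 with doxycycline (log2 fold change 0.39, SE 0.0205, edgeR adjusted p 5.07e-19). Gbp9 and Gbp6 rose by 0.61 and 0.57 on the log2 scale, Gbp3 by 0.47, Gbp7 by 0.42 and Gbp4 by 0.40, with SEs of 0.0237 to 0.0337. No doxycycline library overlapped a control library in any of the 8 members. The share of all tested genes without such overlap was not counted, here or below. Of all tested genes, 14.8% were higher and 18.7% lower in this comparison, and the members' median log2 fold change was 0.52 beside -0.01 over all tested genes. Scaling by library size only left all 8 higher and turned the split over all genes from 1917 higher and 2414 lower to 2546 higher and 1607 lower. The log2 fold change of Gbp5 lay above that of 99.6% of tested genes and that of Gbp2, the smallest of the 8, above 93.3%.

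**Figure D2:**
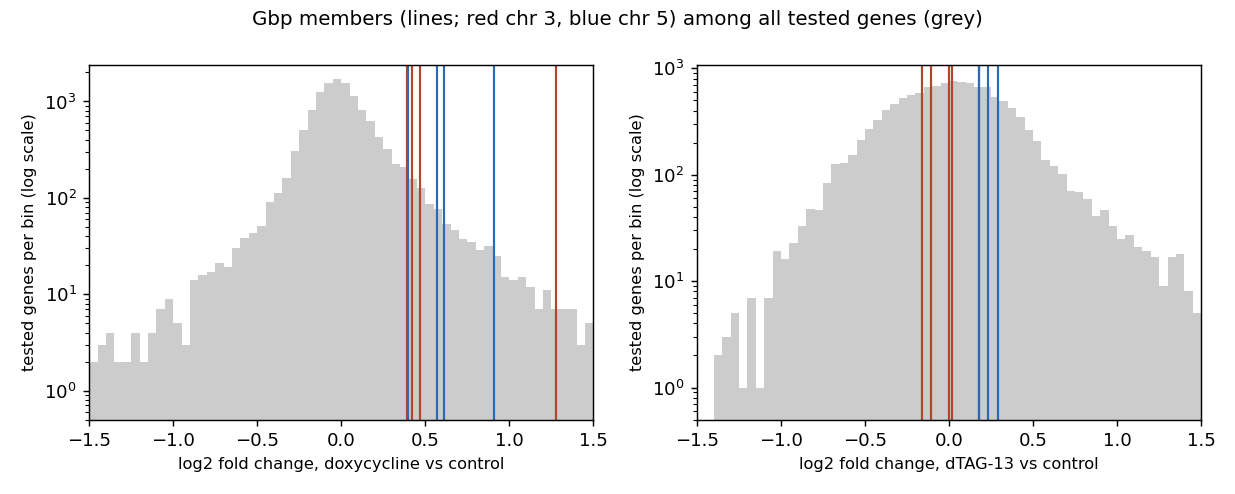
Number of tested genes (log scale) by log2 fold change in bins of the same width, with each Gbp member as a vertical line (red chromosome 3, blue chromosome 5). On the left, doxycycline against control, all 8 lines lie between 0.39 and 1.28; on the right, dTAG-13 against control, they lie between -0.16 and 0.29; genes beyond the axis limits are not drawn.

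The rise with doxycycline was also seen in cells that had dTAG-13 for the last 3 h. Doxycycline plus dTAG-13 against dTAG-13 alone gave higher levels in 8 of 8 members, again without overlap between libraries, where 10.7% of tested genes were higher and 9.64% lower. By library size only that split over all genes moved from 1386 higher and 1244 lower to 926 higher and 2132 lower, and the 8 members stayed higher. Gbp5 rose here by 0.79 on the log2 scale (SE 0.0633, edgeR adjusted p 4.96e-13) and Gbp8 by 0.72 (SE 0.111, edgeR adjusted p 3.56e-06). Gbp6 rose by 0.54, Gbp3 by 0.46, Gbp9 by 0.43, Gbp2 by 0.38, Gbp4 by 0.33 and Gbp7 by 0.31. The members' median was 0.45, beside 0.00 over all tested genes. Against control, the cells with both compounds were likewise higher in 8 of 8 members, where 32.5% of tested genes were higher and 33.8% lower. There Gbp8 was 1.01 and Gbp5 0.81 higher on the log2 scale, and Gbp7 was the least changed at 0.16 (SE 0.0239, edgeR adjusted p 3.4e-07). The median over members was 0.58, beside 0.01 over all tested genes. These comparisons share libraries with those before them and are not separate evidence.

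After 3 h with dTAG-13 every member called higher was on chromosome 5 and every member called lower on chromosome 3. The exception was Gbp3, called higher by library size only. This grouping by chromosome was made after the values were seen and was not tested. Against control, 4 members were higher and 2 lower, where 30.0% of all tested genes were higher and 32.1% lower. The median of the members was 0.10, beside 0.02 over all tested genes. Gbp4, reported to restrain IRF7, read 220, 230 and 231 CPM in control and 260, 270 and 267 with dTAG-13, with no overlap (log2 fold change 0.23, SE 0.0243, edgeR adjusted p 9.16e-11). Gbp6 was higher by 0.18 (107, 107 and 106 against 118, 123 and 122 CPM, edgeR adjusted p 8.89e-07) and Gbp9 also by 0.18 (edgeR adjusted p 2.27e-05). Gbp8 was called higher by 0.29 (SE 0.122, edgeR adjusted p 0.0357), yet its libraries overlapped, with 3.73, 4.70 and 4.29 CPM in control and 4.95, 4.57 and 6.10 with dTAG-13. Leaving out control 1, control 3 or dTAG-13 replicate 3 ended the Gbp8 call, with log2 fold changes of 0.20, 0.29 and 0.16. DESeq2 (adjusted p 0.0884) and an edgeR fit of only these groups (adjusted p 0.0529) did not call Gbp8 either.

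The members of chromosome 3 gave 2 lower calls. Gbp7, a member linked to oxidative and autophagic defence, fell from 291, 296 and 304 CPM to 265, 272 and 262 (log2 fold change -0.16, SE 0.0240, edgeR adjusted p 3.57e-07). Gbp2 fell from 713, 731 and 752 CPM to 665, 689 and 680 (-0.11, SE 0.0205, edgeR adjusted p 1.06e-05). Both declines left the groups apart. Gbp3 did not pass the test (0.00, 95% interval -0.05 to 0.05, edgeR adjusted p 0.989), nor did Gbp5 (0.02, interval -0.11 to 0.16, edgeR adjusted p 0.797).

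Effects of this size moved with the scaling, whose choice shifted the median of all genes by 0.09 and the split of calls from 3877 higher and 4144 lower to 5256 higher and 3115 lower. By library size only, Gbp2 was -0.02 (adjusted p 0.428), Gbp7 -0.06 (adjusted p 0.0179), Gbp9 0.27 and Gbp3 0.09, now called higher (adjusted p 0.00137). Fold changes also fell with transcript length over all genes (Spearman -0.44 across 11745 genes, which are not independent replicates). After a correction for length and GC content Gbp6 was 0.03 (adjusted p 0.449), Gbp8 0.12 (adjusted p 0.418), Gbp3 -0.12 (adjusted p 2.85e-05), Gbp2 -0.23 and Gbp9 0.12 (adjusted p 0.00233). Gbp4 (0.32 and 0.19), Gbp9 (0.27 and 0.12) and Gbp7 (-0.06 and -0.14) kept their calls in both settings.

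Among cells with doxycycline, 3 members were lower and 2 higher in the group with dTAG-13, where 33.4% of tested genes were lower and 30.7% higher. The median over the members was -0.01, beside 0.00 over all tested genes. Gbp5 fell from 41.7, 38.5 and 38.5 CPM to 26.4, 31.4 and 27.7, with no overlap (log2 fold change -0.47, SE 0.0571, edgeR adjusted p 1.84e-09). Gbp7 fell from 406, 394 and 393 CPM to 325, 337 and 330 (-0.27, SE 0.0237, edgeR adjusted p 6.21e-13). Gbp2 was lower by 7.94% (-0.12, edgeR adjusted p 2.55e-06). All of the members that fell are on chromosome 3.

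Both members that rose are on chromosome 5. Gbp4 rose from 306, 297 and 298 CPM to 334, 335 and 332 (0.15, SE 0.0239, edgeR adjusted p 5.78e-07). Gbp6 rose from 160, 161 and 153 CPM to 175, 178 and 176 (0.15, SE 0.0271, edgeR adjusted p 4.22e-06), a value that became 0.04 (adjusted p 0.223) after the length and GC correction. The same correction made Gbp7 -0.16, Gbp2 -0.21 and Gbp3 -0.10 (adjusted p 0.000425), the last a call that was not made without it. Without it, Gbp3 (-0.01, interval -0.06 to 0.04), Gbp8 (0.11, interval -0.11 to 0.32) and Gbp9 (0.00, interval -0.07 to 0.06) did not pass the test. Genes with transcripts of 4300 to 5700 bases, the range that holds Gbp4, Gbp7 and Gbp9, had a median of -0.20 in this comparison, and those of 2400 to 3100 bases, which holds the other members, 0.01.

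**Figure D3:**
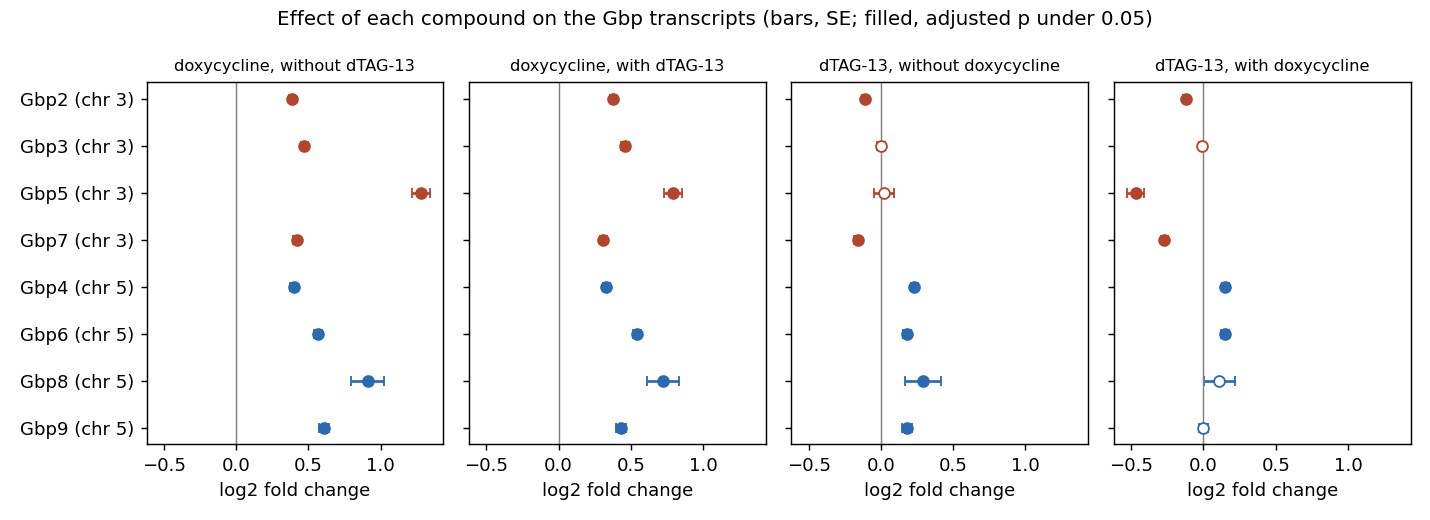
Log2 fold change of each Gbp member (points; bars, SE; filled where the edgeR adjusted p is under 0.05) for doxycycline without and with dTAG-13 and for dTAG-13 without and with doxycycline. All 8 points lie right of 0 in both doxycycline panels, from 0.31 to 1.28, and the dTAG-13 panels hold points on both sides, with Gbp5 at -0.47 in the presence of doxycycline.

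Whether dTAG-13 acted differently with and without doxycycline was tested as an interaction, its effect with doxycycline minus its effect without. Gbp5, Gbp7 and Gbp9 were called, each lower, and no member was called higher; over all tested genes 9.64% were lower and 13.2% higher. Gbp5 had the greatest difference, -0.49 (SE 0.0880, edgeR adjusted p 4.94e-05), from 0.02 without doxycycline to -0.47 with it. Equally, the rise of Gbp5 with doxycycline was 1.28 without dTAG-13 and 0.79 with it. The value ran from -0.57 to -0.45 when each library was left out and stayed called each time, and it was -0.45 (adjusted p 0.000157) after the length and GC correction. Gbp9 differed by -0.18 (SE 0.0477, edgeR adjusted p 0.0047), from 0.18 without doxycycline to 0.00 with it. Gbp7 differed by -0.11 (SE 0.0337, edgeR adjusted p 0.0144). The length and GC correction ended both calls: Gbp9 was then -0.12 (adjusted p 0.0753) and Gbp7 -0.02 (adjusted p 0.673). Gbp7 was also not called without control 1 (-0.09, adjusted p 0.0659) or without doxycycline plus dTAG-13 replicate 1 (-0.10, adjusted p 0.0546).

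The other 5 members gave no interaction call. The interval for Gbp2 was -0.07 to 0.05, for Gbp3 -0.08 to 0.06, for Gbp6 -0.10 to 0.06, for Gbp4 -0.14 to -0.01 before adjustment over genes, and for Gbp8 -0.51 to 0.14. Scaling by library size only made Gbp2 (-0.08, adjusted p 0.0413) and Gbp4 (-0.15, adjusted p 0.00132) called as well. That scaling turned the split over all genes from 1705 higher and 1245 lower to 818 higher and 2424 lower, and the length and GC correction turned it to 1993 higher and 878 lower. Leaving out dTAG-13 replicate 1 also made Gbp4 called (-0.10, adjusted p 0.0389). The median of the 8 members was -0.09, beside 0.01 over all tested genes.

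The balance between the clusters can be read without any library scaling, as the ratio of summed counts of Gbp2, Gbp3, Gbp5 and Gbp7 to those of Gbp4, Gbp6, Gbp8 and Gbp9. This grouping was chosen after the values were seen, so no test is given. The ratio was 3.04, 3.01 and 3.11 in the control libraries and 2.90, 2.93 and 2.94 with doxycycline. It was 2.47, 2.47 and 2.45 with dTAG-13 and 2.42, 2.46 and 2.41 with both compounds. Every library with dTAG-13 thus lay below every library without it, and doxycycline libraries lay slightly below control libraries. Removing Gbp2, which supplies most chromosome 3 counts, gave 1.22 to 1.26 in control, 1.22 to 1.24 with doxycycline, 1.00 to 1.02 with dTAG-13 and 0.990 to 1.01 with both. Removing Gbp6, whose sequence is shared with Gbp10, gave 4.08 to 4.21, 4.02 to 4.11, 3.32 to 3.34 and 3.37 to 3.44 in the same order. After the length and GC correction the ratio was 3.03 to 3.15 in control, 2.92 to 2.96 with doxycycline, 2.44 to 2.47 with dTAG-13 and 2.39 to 2.43 with both, as far apart as in the counts.

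**Figure D4:**
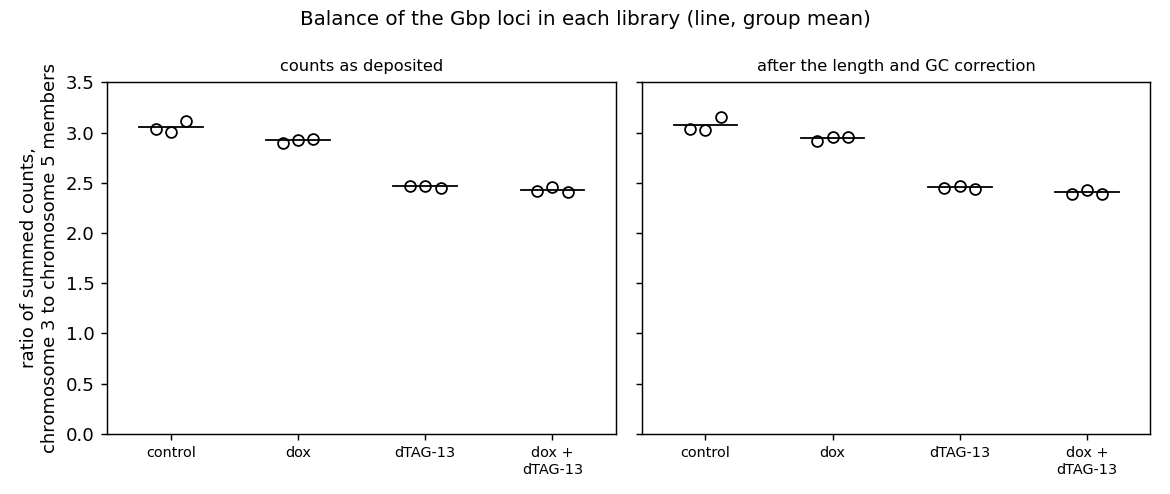
Ratio of summed counts of the chromosome 3 members to those of the chromosome 5 members in every library (circles; line, group mean), from the deposited counts on the left and after the length and GC correction on the right. The 6 libraries with dTAG-13 lie between 2.41 and 2.47 on the left, and the 6 without it between 2.90 and 3.11.

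The members differ in how well their reads can be told from each other. Of all stretches of 50 bases in the longest transcript, 70.3% in Gbp6 also occurred in another Gbp transcript, mostly Gbp10 (62.3%). The share was 21.2% in Gbp8, 12.8% in Gbp4, 9.56% in Gbp9, 4.79% in Gbp3, 2.28% in Gbp7, 2.07% in Gbp2 and 0% in Gbp5. How the authors counted reads that map to several places is not given in the sources used here, so Gbp6 and Gbp10 are uncertain as single genes. With the counts of both added, the log2 fold change was 0.57 with doxycycline, 0.17 with dTAG-13 and 0.15 for dTAG-13 among doxycycline cells, and no call changed. In GENCODE, the models of Gbp8 also overlap Gbp9 and Gbp4 on the same strand, Gbp7 overlaps the pseudogene Gm43802, and Gbp6 the gene Gm43302. The RefSeq models, whose positions are given above, show none of these overlaps. In RefSeq Gbp3 overlaps the noncoding gene Gm40158, and in both annotations Mir6381 lies within Gbp2, on the other strand.

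Among the family genes outside the 8, Gbp10, the closest relative of Gbp6, had 15.0 ± 1.24 CPM in control and 22.3 ± 1.47 with doxycycline (log2 fold change 0.58, SE 0.0671, edgeR adjusted p 4.32e-09). It was 16.1 ± 0.815 CPM with dTAG-13 and did not pass the test there (0.11, edgeR adjusted p 0.181). Gbp2b, which lies between Gbp3 and Gbp2, was barely detected, at 0.666 ± 0.156 CPM in control and 0.844 ± 0.0901 with doxycycline, and gave no call. Gbp11, annotated as a transcribed pseudogene, stood at 0.640 ± 0.220 CPM in control and 1.45 ± 0.138 with both compounds (1.19, SE 0.276, edgeR adjusted p 0.000232).

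The signalling genes above the family were read from a list of their own. Counts in this list and in those below stand beside the shares over all tested genes. These were 14.8% higher and 18.7% lower with doxycycline, and 30.0% higher and 32.1% lower with dTAG-13 against control. Among doxycycline cells 30.7% were higher and 33.4% lower with dTAG-13, and in the interaction 13.2% were higher and 9.64% lower. Of 15 genes for the interferon-gamma receptor and its transcription factors, 14 were tested, and with doxycycline 9 rose and 1 fell, with a median log2 fold change of 0.18 beside 0.52 for the Gbp members. Irf1 rose by 0.17 (444 to 501 CPM, edgeR adjusted p 8.12e-09). Irf7 rose most (0.95, edgeR adjusted p 9.84e-11), and Socs3, a feedback inhibitor of JAK signalling, fell by 0.33 on the log2 scale. With dTAG-13 against control 5 of the 14 were higher and 6 lower, among them Ifngr1 (0.25) and Socs3 (-0.42), a balance that became 8 higher and 4 lower when only library size was scaled. Ifngr1 became 0.13 (adjusted p 0.0531) after the length and GC correction. Among doxycycline cells 5 were higher and 6 lower with dTAG-13, led by Ifngr1 (0.24, and 0.13 and not called after the correction) and Jak1 (-0.43, and -0.24 after it). Irf1 was higher by 0.20 without and 0.10 with doxycycline. In the interaction 7 of the 14 were lower and 1 higher, and after the correction 4 were lower and 2 higher.

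The immunity-related GTPases, which help to load Gbp proteins onto vacuole membranes, together with Gvin1 gave 6 of 8 higher and 1 lower with doxycycline. Gvin1, a very large interferon-inducible GTPase, rose most (0.55, edgeR adjusted p 2.96e-16), and Irgm1, a regulator of the other GTPases, fell by 0.16. With dTAG-13, 4 were higher and 2 lower, led by Gvin1 (0.23) and Irgm1 (-0.33), but 1 was higher and 6 lower after the length and GC correction, with Gvin1 at 0.36 and Irgm1 at -0.51. Among doxycycline cells, 5 were higher and 2 lower with dTAG-13, from Ifi47 (0.52) to Irgm2 (-0.24), and 3 were higher and 3 lower after the correction, with Ifi47 at 0.27. Gm12250 is counted after the correction at -0.33 without doxycycline and 0.21 with it, unchanged as in genes the correction did not cover. Its unchanged values therefore do not show that it withstood the correction.

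Effectors of the caspase-11 route could be tested in 5 of 9 genes. Nlrp3 and Pycard, partners in the inflammasome that Gbp5 assists, had at most 2 counts in any library, Il1b had 0 in every library and Il18 at most 10. With doxycycline 3 of the 5 rose, among them Gsdmd, the pore-forming target of the caspases (0.58, edgeR adjusted p 4.43e-09), and Casp1 (0.50). With dTAG-13 against control 5 of 5 were higher, led by Gsdmd (0.59), and 3 after the length and GC correction. Among doxycycline cells 4 were higher with dTAG-13, led by Casp4, the gene of caspase-11 (0.59). After the correction Casp4 was 0.16 there, and the list had 3 higher and 1 lower, Casp1 having turned from 0.32 to -0.10.

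Ubiquitin and autophagy genes that help to bring Gbp proteins to vacuoles gave, with doxycycline, 4 of 12 higher, led by Gabarap (0.31), and 2 lower, led by Sqstm1 (-0.21). With dTAG-13, 9 were higher and 3 lower both without and with doxycycline. Atg12 (0.41) and Rnf213 (-1.0, edgeR adjusted p 4.36e-29) led without doxycycline, and Gabarapl2 (0.46) and Rnf213 (-0.65) with it. After the length and GC correction 5 were higher and 3 lower without doxycycline and 5 higher and 2 lower with it, and Rnf213, a giant ubiquitin ligase, was -0.52 and -0.14, while Gabarapl2 was 0.18 with doxycycline. The correction also turned calls round: Atg3 went from 0.14 to -0.08 without doxycycline, and Gabarap from 0.09 to -0.16 with it. Among 6 enzymes of CaaX prenylation, none was higher with doxycycline and 4 were lower, led by Zmpste24 (-0.22), although only 1 was lower by library size only. With dTAG-13, 1 was higher (Fnta, 0.22) and 4 lower, led by Icmt (-0.42), and among doxycycline cells 2 were higher, led by Rce1 (0.33), and 3 lower, led by Icmt (-0.45). The length and GC correction brought Fnta to 0.08 and Icmt to -0.18 without doxycycline, and Rce1 to 0.20 and Icmt to -0.16 with it. Atlastins, mitofusins and dynamins, relatives in fold without interferon control, gave 2 of 9 higher with doxycycline, led by Dnm1 (0.33). With dTAG-13 they gave 1 higher and 7 lower both without doxycycline (Atl1 0.52, Mfn2 -0.44) and with it (Atl2 0.10, Mfn2 -0.46), and 5 and 4 lower after the length and GC correction, with Mfn2 at -0.26 and -0.25 and Atl2 at 0.01 and no longer called. Among doxycycline cells Atl3 turned with the correction from -0.10, called lower, to 0.14, called higher.

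Across the 12 libraries, the genes outside the family whose log2 CPM ran most like a member's were found among 9097 genes, as a description in which the 4 group means set most of the correlation. Gbp3 ran closest to Adpgk (r = 0.997) and Nek7 (0.994), Gbp9 to Itgb7 (0.993) and Rsad2 (0.991), and Gbp7 to Nrp1 (0.994) and Ly6e (0.992). For Gbp6 these were Ramp3 and Fstl1 (both 0.990), for Gbp2 Flrt3 (0.985) and Pcolce (0.982), for Gbp4 Igfbp6 (0.984) and H2-T22 (0.983), and for Gbp5 Rai14 (0.981) and Tnfrsf1b (0.974).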

How the data were processed

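Poly(A) RNA of 12 libraries, 3 in each of 4 groups set by the labels, was analysed from 1 table of raw read counts that the authors deposited without normalization. Reads were aligned with Subread, per the file headers. The submitters' processing notes name bcl2fastq 2.17, featureCounts and mm10; for the annotation, the strand setting and reads with several hits, nothing is given in the sources used here. Of 27179 Entrez IDs, 25275 were named from RefSeq GRCm38.p6 and 18 from GENCODE M21, whose longest coding transcript gave length and GC content, and 1886 had no symbol.

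In R 4.3.3, edgeR 4.0.16 fitted 1 mean per group to the 12910 genes kept by filterByExpr, with TMM factors of 0.9647 to 1.0349. Contrasts were tested by the two-sided quasi-likelihood F test with Benjamini-Hochberg adjustment over all tested genes, and "rose", "fell", "higher", "lower" and "called" mean an adjusted p under 0.05. SEs were derived from the fold change and F. Self-tests on simulated counts were run first. Alternatives were RLE factors, library size only, other filters, DESeq2 1.42.0, fits of only the groups compared, a replicate block, a per-library spline correction for length and GC (5 degrees of freedom per spline), and leaving out each library. The length and GC correction covered the 91.0% of tested genes with a transcript length, and the others were left uncorrected. Sums of Gbp6 and Gbp10, lengths of any transcript type, cluster ratios and the lists under other scalings were added after seeing the data. The named genes are the 8 members, the other Gbp genes, Irf1, Adpgk, the called gene with the highest and lowest fold change of each pathway list in the doxycycline comparison and both dTAG-13 comparisons, and the 2 genes most correlated with each member of at least 10 CPM. Jak1, Nlrp3, Pycard, Il1b, Il18, Casp1, Gm12250, Atg3, Atl3, Cd68, Lyz2 and Pecam1 are named beside counts or changes after their values were seen. A further gene that the rule names is not reported here. The members and lists were chosen with earlier results of these data known. Pairs of libraries within a group differed by more than sampling noise (chi-square per degree of freedom 2.43 to 8.82), so none was treated as a duplicate.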

Additional observations from a re-analysis of the deposited data

Results flagged for a closer look

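In 3 members the effect of dTAG-13 differed between cells with and without doxycycline by a test of that difference (edgeR quasi-likelihood F test of the interaction in 12 libraries). Gbp5 had a difference of -0.49 on the log2 scale (adjusted p 4.94e-05), with 28.5 ± 2.62 CPM in the doxycycline plus dTAG-13 group against 39.5 ± 1.85 with doxycycline, while 16.5 ± 0.919 and 16.3 ± 0.135 CPM were measured without doxycycline (mean ± SD, n = 3). Gbp9 had a difference of -0.18 (adjusted p 0.0047), from means of 74.6 against 65.9 CPM without doxycycline and 100 against 101 CPM with it. Gbp7 had a difference of -0.11 (adjusted p 0.0144), from 266 against 297 CPM without doxycycline and 331 against 398 CPM with it. Groups of 3 libraries were too small to test single libraries as outliers.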

How the results depend on the processing

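All 8 members were called in every setting run for doxycycline against control and for both compounds against either control or dTAG-13. The count was 5 to 6 for dTAG-13 against control and for dTAG-13 among doxycycline cells. For the interaction, 3 members became 5 by library size only, 1 after the length and GC correction, 1 with the replicate block and that correction together, and 1 with the correction from transcripts of any type, which was added after seeing the data; leaving out libraries gave 2 to 4. The causes were not tested. Gbp6 among doxycycline cells lost its call with that correction (0.04) but was called at 0.08 (adjusted p 0.0059) when lengths came from transcripts of any type. Gbp3 with dTAG-13 turned from 0.00, not called, to 0.09, called, by library size only. Of 1096 values of single members under other settings, 1064 kept their call or stayed not called, 22 lost the call, 9 gained it and 1 turned. Values that stayed not called could still change sign and are among the 1064. For dTAG-13 against control, Gbp5 went from 0.02 to -0.06 after the length and GC correction.

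Levels changed by -3.19 to 3.64% by library size only, by -0.990 to 1.00% with RLE factors and by -9.04 to 6.60% when a library was left out. The replicate numbers share no stated pairing: deviations of same-numbered libraries correlated between -0.20 and 0.19 over 18 pairs, and 1 of 12 libraries correlated best with its own number. The replicate block left the members called at 8, 6, 5, 8, 8 and 3 over the 6 contrasts, and moved all calls for doxycycline against control from 4331 to 4172 and for the interaction from 2950 to 2810. Depth limits Gbp8, Gbp2b and Gbp11, the family genes with the fewest counts.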
